A study of Mus musculus with 4 samples.

Results

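The genes described here are 6 that build or steer the actin, septin and adhesion cytoskeleton of myelinating cells: Ermn, Anln, Arpc1b, Myo1d, Abl1 and Lims2. They were taken by name from a deposited table of transcript clusters, the units into which the array groups its probes, and they are 6 of the 369 genes that this table names. All 6 were found, and they covered 8 clusters, because Arpc1b and Myo1d each had 2. For these genes the cluster with the higher mean over the arrays was used and the other is given beside it.

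Expression had been measured on 4 Affymetrix arrays with total RNA of whole mouse spinal cord at postnatal day 14 (C57 and 129 mixed background). The mutant samples, Sip1 cKO, were Sip1c/c;Olig1-Cre, with both copies of Sip1 (now Zeb2, a zinc finger transcription factor) floxed. The control samples were Sip1c/+;Olig1-Cre littermates, so that the controls also carried the Cre and had 1 floxed copy. Each group had 2 arrays, labelled as biological replicates. Olig1-Cre acts in the oligodendrocyte lineage, whereas the RNA came from all cells of the cord.

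An oligodendrocyte makes myelin by pushing out an actin-rich process that touches an axon, spreading the leading edge of its membrane around it and then taking the actin filaments apart as the layers compact. Branched filaments are nucleated by the Arp2/3 complex, myosins of class I tie filaments to membranes, and integrin adhesions with their LIM-domain adaptors link filaments to the matrix. In the finished sheath of mouse central myelin, septin filaments assembled with anillin line the channel of cytoplasm next to the axon.

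Stretches of 250 bases before the RefSeq start are shown for the 3 genes with the largest changes among those that had an entry, because the genes differ in how rich this stretch is in CG pairs, which are in capitals. The 3 are Ermn (chr2:58052865-58053114, minus strand), Anln (chr9:22389207-22389456, minus strand) and Arpc1b (chr5:145114006-145114255, plus strand), all in assembly GRCm38.p6 and written 5′ to 3′.
Ermn: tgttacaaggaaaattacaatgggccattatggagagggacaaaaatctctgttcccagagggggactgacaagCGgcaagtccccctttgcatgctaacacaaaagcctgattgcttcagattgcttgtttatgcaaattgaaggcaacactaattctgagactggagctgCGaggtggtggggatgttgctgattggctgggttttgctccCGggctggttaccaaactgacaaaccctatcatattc
Anln: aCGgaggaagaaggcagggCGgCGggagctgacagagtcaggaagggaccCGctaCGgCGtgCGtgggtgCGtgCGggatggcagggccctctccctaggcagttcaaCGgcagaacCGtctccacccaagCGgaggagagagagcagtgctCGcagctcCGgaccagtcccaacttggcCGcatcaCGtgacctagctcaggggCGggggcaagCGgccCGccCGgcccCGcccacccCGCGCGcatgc
Arpc1b: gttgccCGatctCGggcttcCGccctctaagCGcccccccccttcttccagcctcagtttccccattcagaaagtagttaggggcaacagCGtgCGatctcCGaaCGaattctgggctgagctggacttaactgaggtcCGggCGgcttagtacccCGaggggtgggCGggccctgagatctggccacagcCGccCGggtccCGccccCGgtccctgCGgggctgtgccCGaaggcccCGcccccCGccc

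The Ermn stretch held 3 CG pairs and 47.2% G and C. The Anln stretch held 24 pairs and 70.4%, and the Arpc1b stretch 20 pairs and 68.4%. Over all 32851 promoter windows of the same length the median was 6 pairs and 52.4%, so Ermn lay below it and the other two above it. Abl1 had 2 annotated starts, with 16 and 19 CG pairs. Of the 6 genes 4 had an entry, and Myo1d and Lims2 are named only.

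The same windows were searched on both strands for the letters CACCTG (reverse complement CAGGTG) and for the shorter CACCT (reverse complement AGGTG) within it, which the zinc fingers of Zeb2 bind, and for ACAAAG (reverse complement CTTTGT) and ACAATG (reverse complement CATTGT), core letters of Sox factor sites. CACCTG occurred in none of the 5 windows of these 4 genes, against 17.2% of all windows. CACCT occurred only in the Ermn window, read on the reverse strand from 76 bases before the start, against 46.0% of all windows. ACAATG occurred only in the Ermn window, 234 bases before the start (10.7% of all windows), and ACAAAG only in the upstream Abl1 window, on the reverse strand 27 bases before the start (16.5% of all windows). Matches of this kind describe the letters and not sites in use.

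The array value table held 35557 clusters with log2 values made by RMA, with array medians of 6.62 to 6.70. Arrays of a group were alike across clusters (Pearson's r of 0.990 in control and 0.993 in Sip1 cKO), and r was 0.983 to 0.984 for pairs from different groups. Zeb2 was lower in both Sip1 cKO arrays (8.61 and 8.66) than in both control arrays (10.29 and 10.47), so the arrays followed their labels. Its log2 change was -1.75 (limma, adjusted p = 0.0144). The precision of every value below is limited by the 2 arrays per group.

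The comparison of Sip1 cKO with control asked how expression in the cord changes without Sip1 in the lineage. Of the 6 cytoskeletal genes 5 fell in limma, with a Benjamini-Hochberg adjusted p under 0.05 over the whole array, and 1, Arpc1b, did not pass. In the same fit 0.858% of all clusters and 55.3% of the named genes were called lower. Both control arrays stood above both Sip1 cKO arrays for 6 of 6 genes, as they did for 25.1% of all clusters and 97.8% of the named genes. The deposited table had kept clusters by their fold on these same arrays, so neither the direction nor the count of calls among the 6 is independent evidence. For a single gene the smallest two-sided p that exact permutation of 2 against 2 arrays allows is 0.333.

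**Figure D1:**
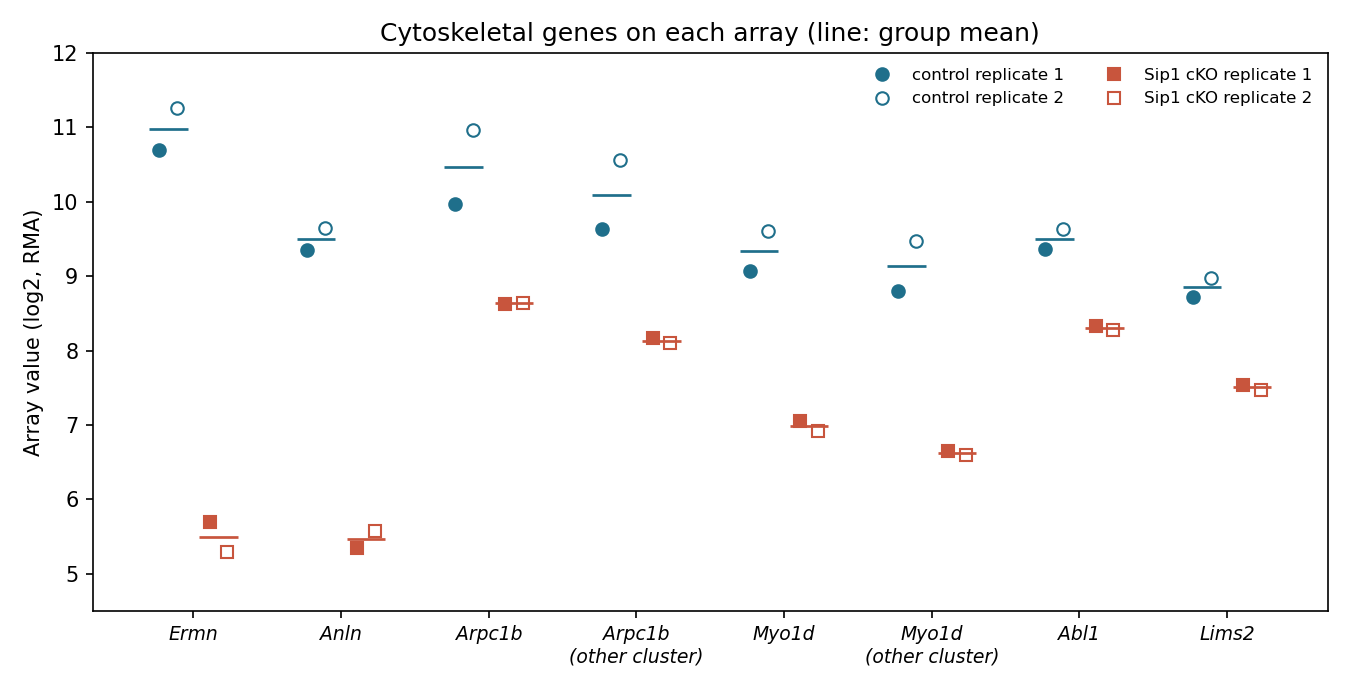
Log2 array values (vertical axis) of the 8 clusters of the 6 genes; circles are the 2 control arrays, squares the 2 Sip1 cKO arrays, open symbols are replicate 2, and lines are group means. Control and Sip1 cKO values do not overlap for any cluster, and the gap between the control arrays is widest for Arpc1b.

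Ermn encodes ermin, an actin-binding protein of oligodendrocytes that sits in the cytoplasmic loops of the sheath, and it had the largest change of the 6. In control the arrays read log2 values of 10.69 and 11.26, and in Sip1 cKO 5.69 and 5.30. Every control value was thus far above every Sip1 cKO value. The group means were 10.98 ± 0.40 and 5.49 ± 0.28 (SD, n = 2 each), and Ermn fell by 5.48 on the log2 scale (limma, standard error 0.24, adjusted p = 0.00691). In the fit this was 44.8-fold lower, with a 95% interval of 28.7 to 69.7. The Sip1 cKO values lay below the array medians of 6.62 to 6.70, and whether they stood above background was not analysed here, so the size of the fold is uncertain. Ermn ranked 5 of 369 when the named genes were ordered from the most negative change.

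Anln encodes anillin, a scaffold that binds actin, myosin and septins at the cleavage furrow of dividing cells and that in mouse myelin helps septin filaments to form. Its control arrays read 9.35 and 9.65 and its Sip1 cKO arrays 5.35 and 5.58. Both Sip1 cKO arrays were far below the controls. Anln fell by 4.04 on the log2 scale (standard error 0.15, adjusted p = 0.00574), which in the fit was 16.4-fold lower with a 95% interval of 12.5 to 21.6. The limit given for Ermn holds here too, since the Sip1 cKO values also lay below the array medians. Anln ranked 13 of 369.

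The septin list held 13 genes, of which the table named 2, Septin4 and Septin8 (listed there as Sept4 and Sept8), both subunits found in myelin septin filaments. Septin4 read 10.19 and 10.26 in control and 9.35 and 9.28 in Sip1 cKO. It fell by 0.91 on the log2 scale (adjusted p = 0.0357). Septin8 read 10.27 and 10.51 in control and 9.59 and 9.51 in Sip1 cKO, a log2 change of -0.84 that did not pass (adjusted p = 0.0782). The groups did not overlap for either septin. The log2 change of Anln was -4.04, with a 95% interval of -4.44 to -3.64. The interval for Septin4 was -1.16 to -0.66, and whether the changes of Anln and the septins differ was not tested.

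Arpc1b encodes a subunit of the Arp2/3 complex, which starts new filament branches at the edge of a spreading membrane. It read 9.98 and 10.96 in control and 8.63 on both arrays of Sip1 cKO. The control arrays were 0.98 apart on the log2 scale, the widest control gap of the 6 genes, while the Sip1 cKO arrays were alike. The log2 change was -1.84 with a standard error of 0.33, and it did not pass (adjusted p = 0.127). The fold was 3.57 with a 95% interval of 1.94 to 6.55. Without control replicate 1 the log2 change was -2.33 and without control replicate 2 it was -1.34. Without the 6624 lowest cluster identifiers, which the deposited table does not list, the adjusted p was 0.0358, past the threshold.

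The other cluster of Arpc1b, 10604763, carried the gene's symbol in the table but no transcript accession, in contrast to the cluster used, 10527441. It read 9.63 and 10.56 in control and 8.16 and 8.10 in Sip1 cKO, a log2 change of -1.96 that did not pass either (adjusted p = 0.102). Its control arrays showed nearly the same gap (0.93). Whether both clusters measure the same transcript was not analysed here, and signal from a close copy of the gene cannot be told apart in these values.

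Among the other genes of actin nucleation the table named 1 of 26, and among those of filament binding and turnover 3 of 38. Fmnl2, a formin that elongates unbranched filaments, fell by 1.18 on the log2 scale (adjusted p = 0.0279). Gsn encodes gelsolin, which severs and caps actin filaments. Its control arrays read 11.28 and 11.47 and its Sip1 cKO arrays 7.36 and 7.54. Gsn fell by 3.92 (adjusted p = 0.00569), the largest change among the listed genes outside the 6. Tmod1, which caps the pointed ends of filaments, fell by 1.54 (adjusted p = 0.0464). Fscn1, a filament-bundling protein, had a log2 change of -0.63 and did not pass (adjusted p = 0.264).

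Myo1d encodes a class I myosin, a single-headed motor that links membranes to actin filaments. Its cluster 10389022 read 9.06 and 9.61 in control and 7.06 and 6.92 in Sip1 cKO. Myo1d fell by 2.34 on the log2 scale (standard error 0.20, adjusted p = 0.0284), or 5.07-fold with a 95% interval of 3.50 to 7.35. Its other cluster, 10389025, read 8.79 and 9.47 in control and 6.65 and 6.60 in Sip1 cKO and fell by 2.51 (adjusted p = 0.0305). The 2 clusters of Myo1d carried the same accession, and their order was the same on every array, with log2 differences of 0.14 to 0.41. Of the 23 other myosin genes on the list the table named 1, Myo1e, a relative of the same class. Myo1e had a log2 change of -1.14 and did not pass (adjusted p = 0.0585).

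Lims2 encodes PINCH2, an adaptor made of LIM domains that joins integrin-linked kinase at adhesions. It read 8.73 and 8.97 in control and 7.53 and 7.47 in Sip1 cKO. The groups stood 1.19 apart at their nearest values. Lims2 fell by 1.34 on the log2 scale (standard error 0.12, adjusted p = 0.0305), or 2.54-fold with a 95% interval of 2.03 to 3.17. It ranked 175 of 369, near the middle of the named genes.

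Abl1 encodes a tyrosine kinase that passes signals from adhesions and growth factor receptors to actin. It read 9.37 and 9.64 in control and 8.33 and 8.28 in Sip1 cKO. Abl1 had the smallest change of the 6, and its groups still stood 1.04 apart at their nearest values. It fell by 1.20 on the log2 scale (standard error 0.13, adjusted p = 0.0380), or 2.30-fold with a 95% interval of 1.82 to 2.90, and ranked 206 of 369. With each array centred on its median the adjusted p was 0.0528, so that the call was lost. Of the 31 other genes on the list of integrin adhesion and Abl signalling the table named 1, the integrin subunit Itgb3, with a log2 change of -0.75 that did not pass (adjusted p = 0.255).

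Small GTPases, their exchange factors and their effectors pass such signals on to filament assembly, and of the 27 on the list 5 were named, all of which fell. Arhgef10, a guanine nucleotide exchange factor, fell by 2.47 on the log2 scale (adjusted p = 0.00629). Rhog, a small GTPase, fell by 2.21 (adjusted p = 0.00691). Dock10, an exchange factor of the DOCK family, fell by 1.95 (adjusted p = 0.0104). Cdc42ep2, an effector that binds Cdc42, fell by 1.28 (adjusted p = 0.0412), and Dock5, a relative of Dock10, fell by 1.08 (adjusted p = 0.0425).

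Over all cytoskeleton lists 13 of the 158 other genes were named, of which 9 fell, 0 rose and 4 did not pass. Their median log2 change was -1.18, against -2.09 for the 6 genes, -1.29 for all named genes and -0.01 for all clusters. In the other direction 0.219% of all clusters were called higher. The 145 unnamed genes of the lists were not analysed here, and since naming rested on the fold these counts do not describe the lists as wholes. The lists, too, were chosen with earlier results of these data known.

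**Figure D2:**
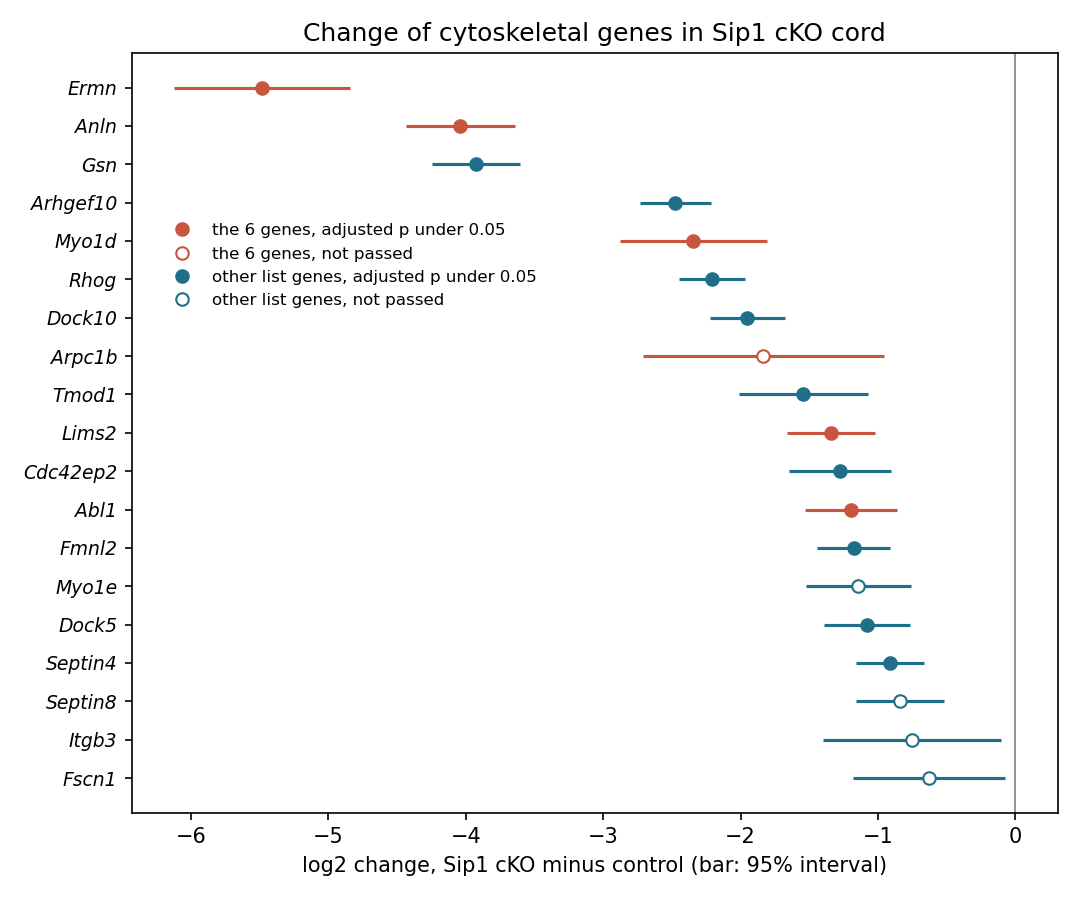
Log2 change of Sip1 cKO minus control (horizontal axis) with its 95% interval from the fit for the 6 genes and the 13 other named list genes (vertical axis); filled points passed at an adjusted p under 0.05. Ermn, Anln and Gsn lie near or beyond -4, and the interval of Arpc1b is the widest of the 6.

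**Figure D3:**
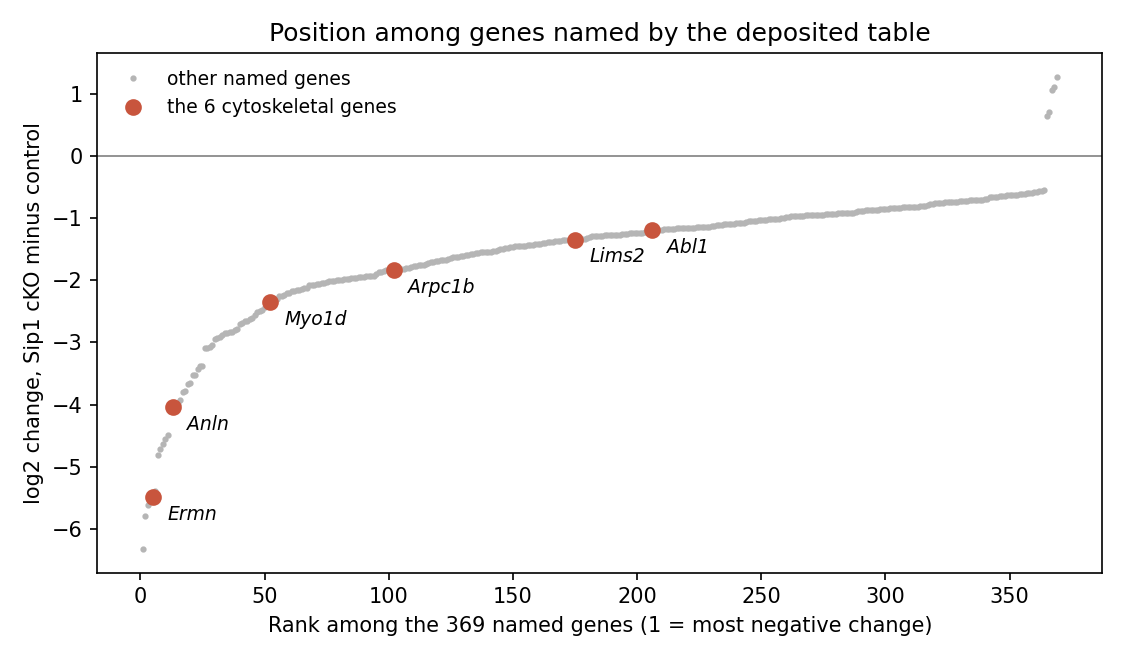
Log2 change of Sip1 cKO minus control (vertical axis) of the 369 named genes in order of their change (horizontal axis), with the 6 genes marked. Ermn and Anln stand at ranks 5 and 13, Myo1d at 52, Arpc1b at 102, Lims2 at 175 and Abl1 at 206.

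The changes thus ran from Abl1 at -1.20 and Lims2 at -1.34 through Arpc1b at -1.84 and Myo1d at -2.34 to Anln at -4.04 and Ermn at -5.48. The 95% intervals of neighbours in this order overlapped from Abl1 to Myo1d. The interval of Anln, -4.44 to -3.64, lay apart from that of Myo1d, -2.88 to -1.81, and from that of Ermn, -6.12 to -4.85. These intervals describe single genes, and differences between genes were not tested.

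Markers of mature oligodendrocytes were also lower in Sip1 cKO. Of 13 listed markers, Mog, Mag, Mobp, Cnp, Cldn11, Opalin, Mal, Aspa, Ugt8, Fa2h and Myrf were named. The list was chosen with earlier results of these data known. All 11 fell, and their log2 changes had a median of -4.81. The markers were named by their fold on these same arrays, where 55.3% of all named genes were called lower. The direction of the markers is thus not independent evidence. The summed linear level of the 11 markers was 51024 and 54385 in the control arrays and 2536 and 3392 in the Sip1 cKO arrays. In Sip1 cKO replicate 1, Mog (5.74), Mag (6.54), Mobp (5.61), Cldn11 (6.37) and Opalin (4.52) lay below the array medians of 6.62 to 6.70. Cnp, Mal, Aspa, Ugt8, Fa2h and Myrf lay above them. Whether the lower ones stood above background was not analysed here, so the size of the marker changes is uncertain. Relative to the mean log2 level of the 11 markers on the same array, Ermn had a log2 change of -0.96 and Anln one of 0.49. On that relative scale the log2 change was 2.18 for Myo1d, 2.69 for Arpc1b, 3.18 for Lims2 and 3.33 for Abl1. These 4 genes were thus lower by less than the mean of the markers. Myo1d, with a log2 change of -2.34, was lower by more than Aspa, with -1.97. Arpc1b (-1.84), Lims2 (-1.34) and Abl1 (-1.20) were lower by less than each of the 11. Differences between these genes and the markers were not tested. In bulk RNA, fewer oligodendrocytes and less RNA per cell cannot be told apart, and the part of either in these changes was not tested.

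Of the lists for other cell types, those of progenitors, microglia, neurons and endothelial cells had 0 named genes and were not analysed here. Of 7 astrocyte markers S100b, which oligodendrocytes also express, was named, with a log2 change of -0.65 that did not pass (adjusted p = 0.141).

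Control replicate 2 read higher than control replicate 1 for 6 of 6 genes, by 0.25 in Lims2 to 0.98 in Arpc1b. The same held for 82.1% of the named genes and 47.0% of all clusters, and the median gap was 0.42 for the 6 genes, 0.24 for the named genes and -0.02 for all clusters. In Sip1 cKO the arrays were closer than in control for all 6 genes, and only Ermn (-0.39) and Anln (0.22) differed by more than 0.2 between replicate 2 and replicate 1. Other named genes also had closer Sip1 cKO arrays, so this was not particular to the 6. The share of named genes or clusters with such closer arrays was not counted. Mog, Mag, Mobp and Cldn11 read higher in Sip1 cKO replicate 2 by 1.34 to 1.61, whereas Ermn read lower there. Of the other named oligodendrocyte markers, Opalin (-0.07) and Myrf (-0.10) also read lower there. Aspa, Ugt8, Cnp, Mal and Fa2h read higher there by 0.06 to 0.58.

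**Figure D4:**
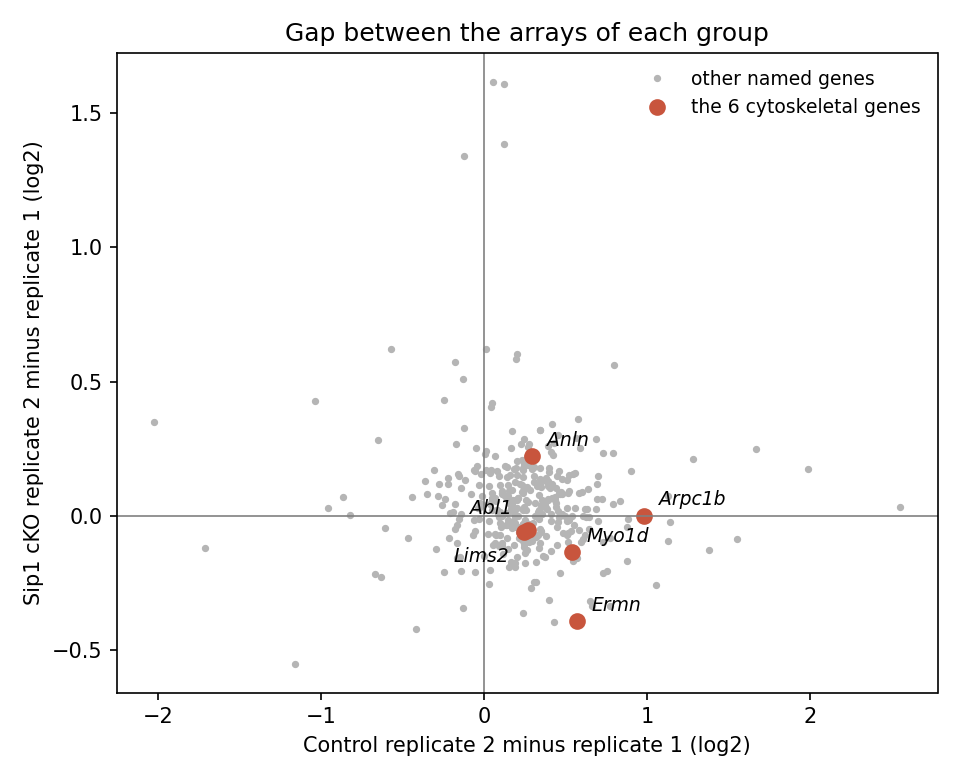
Gap between the control arrays (horizontal axis) and between the Sip1 cKO arrays (vertical axis), each as replicate 2 minus replicate 1 in log2 units, for the 369 named genes, with the 6 genes marked. All 6 lie to the right of 0, from 0.25 to 0.98, and between -0.39 and 0.22 on the vertical axis.

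For each gene the 2 named genes with the most similar values were found by Euclidean distance over the 4 arrays, after each gene was centred on its own mean, among 368 others. Ermn was nearest to Opalin, a glycoprotein of mature oligodendrocytes, at a distance of 0.51 in log2 units, and to Mal, a proteolipid of compact myelin, at 0.90. Anln was nearest to Gsn at 0.15 and to Plxnb3, a semaphorin receptor, at 0.20. Arpc1b was nearest to Plpp2, a lipid phosphatase, at 0.11 and to Ddc, a decarboxylase of monoamine synthesis, at 0.17. Plpp2 and Ddc also had a wide gap between control arrays (0.88 and 0.79), which follows from choosing neighbours by these same values.

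Myo1d lay within 0.075 of Rras2, a small GTPase, and 0.16 of Galnt6, a glycosyltransferase. Abl1 lay within 0.034 of Man1a, a mannosidase, and 0.036 of Tppp, a protein that bundles microtubules. Lims2 lay within 0.056 of Cpd, a carboxypeptidase, and 0.066 of Arhgef2, an exchange factor of small GTPases. The distances were shorter for Abl1 and Lims2 than for Ermn. Ermn ranked 5 of 369 by its change, so few named genes had a change as large, whereas Lims2 and Abl1 ranked 175 and 206. The distances therefore do not show that Abl1 and Lims2 vary more closely with their neighbours.

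The calls rested on all 4 arrays. With 1 array left out, its group keeps 1 array and takes its spread from the other group, and most calls were lost. The log2 change of Ermn then ranged from -5.77 to -5.20, that of Anln from -4.19 to -3.89, that of Myo1d from -2.61 to -2.07, that of Lims2 from -1.47 to -1.22 and that of Abl1 from -1.33 to -1.06.

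The authors' deposited table gave folds of 34.5 for Ermn, 12.5 for Anln, 4.69 and 5.13 for the clusters of Myo1d, 3.48 and 3.76 for those of Arpc1b, 2.44 for Lims2 and 2.24 for Abl1, each with control higher. It put the 6 genes in the same order as the array values. The table's fold was smaller than the fold of the array values for each of the 8 clusters, with 34.5 against 44.8 for Ermn and 12.5 against 16.4 for Anln. It was made from the same arrays, so it checks only how table and signs were read.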

How the data were processed

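Groups came from the sample titles. RMA gave the authors' deposited log2 values, per the submitters' processing notes, and these were used as they stand. The version of RMA, the genome build and the annotation of the probes are not given in the sources used here. Since RMA makes arrays alike, a shift common to most genes would be hidden. The authors' deposited table of 420 clusters was cut, per the file headers, at the 10th percentile of raw signal and at a fold (ratio) of 1.45 between groups, and lists each group's mean as linear intensity and as centred log2. Genes were named through its 375 clusters with 1 symbol, updated with the RefSeq names of GRCm38.p6. Clusters with several symbols or none were left unnamed.

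Differences were fitted in R 4.3.3 by lmFit and eBayes of limma 3.58.1 (two-sided tests) for group alone, over the 35557 clusters of the array, with Benjamini-Hochberg adjustment over the same clusters. The procedure was run on simulated data with known changes and independent noise, which checks the computation and not the calls on these arrays. Values are mean ± SD, and intervals are 95% intervals of the fit. Depth does not apply to arrays. The number of arrays limits the precision. The text names the 6 genes, every gene of the lists that the table names, Zeb2 and the 2 nearest genes to each member. A gene of the marker lists is not reported here. Members and lists were chosen with earlier results of these data known. Promoter sequences are from RefSeq, GRCm38.p6. Alternatives were array weights, centring on array medians, quantile normalization once more, a dim filter (mean log2 value of at least 6, passed by all 6 genes, by Ermn and Anln only through the control arrays), eBayes with trend or robust, identical rows tested once, leaving out the lowest identifiers, a gene's other cluster, the replicate number as a block and leaving out each array.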

Additional observations from a re-analysis of the deposited data

How the results depend on the processing

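All 6 genes kept a negative change in every alternative run. Both control arrays stood above both Sip1 cKO arrays for each gene, so leaving out or weighting arrays could not reverse a sign. The genes were also named by their fold on these same arrays, so neither the signs nor the counts below are independent evidence. The count of calls among the 6 genes stayed at 4 to 6 with either scaling, both eBayes options, array weights, identical rows tested once, the other cluster and without the lowest identifiers. Under the dim filter it was 5, but Ermn and Anln, with Sip1 cKO means of 5.49 and 5.46, passed that filter only through control. Of 80 alternative values for single genes, 59 stayed on their side of the threshold, 20 lost their call and 1, Arpc1b without the lowest identifiers, gained it. Leaving out 1 array gave 0 to 2 calls among the 6 genes, 0 to 3 among the 13 other list genes (9 with all arrays) and 0 to 59 lower clusters (305 with all arrays). There the single array left in a group takes its spread from the other group. At an unadjusted p under 0.05 the fits without a control array still held 6 of the 6 genes, 12 or 13 of the 13 other list genes and 2949 or 3527 lower clusters. More clusters were lower with an eBayes trend (487), the dim filter (532) and without the lowest identifiers (600). The labels do not say whether arrays with the same replicate number share a litter. The deviations of same-numbered arrays correlated at r = 0.0764 over the clusters. With the replicate block 2 of the 6 genes passed, Ermn and Anln, with 4 of the 13 other list genes and 110 lower clusters, on 1 residual degree of freedom. The cause of these shifts was not tested. With 2 arrays a group, a wide gap in 1 group can decide a call.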
